A study of Mus musculus with 8 samples.

Results

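The genes described here encode the proteins of the cytosolic ribosome. They were chosen by name: gene symbols that begin with Rpl or Rps followed by a number and at most a short suffix, with Rplp0, Rplp1, Rplp2 and Rpsa, and without pseudogene names or the Rps6k kinases. The rule found 82 genes among the 16094 gene symbols of a catalogue of transcription start sites from mouse facial skin. Of the 82 symbols, 49 named large subunit proteins and 33 named small subunit proteins, counting paralogs.

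The catalogue came from CAGE, which sequences the capped 5′ ends of RNA, in 8 skin samples of C57BL/6 mice at postnatal day 28. The 4 lesional samples have the genotype Nectin-cre(+);Ikk2FL/FL in the labels, a deletion of Ikk2, a kinase gene of the NF-κB pathway, and the series text writes the Cre as Nestin-cre. The 4 non-lesional samples have the genotype Control, with no allele named. Which cells expressed the Cre is not given in the sources used here, and lesion and genotype change together. No label links the 8 value columns to a sample, so no level, library depth, deletion check or difference between lesional and non-lesional skin is reported. All results on clusters describe the shared catalogue, in which a cluster is a stretch of the genome where CAGE tags were joined. Results on promoter sequences describe RefSeq starts instead, and no sequence was read at a cluster. In the catalogue, 16 of 16 checked markers of keratinocytes, fibroblasts, muscle, endothelium, macrophages and T cells had a cluster.

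A ribosome contains a small subunit, which reads the messenger RNA, and a large subunit, which joins amino acids, and most of their proteins come from a single active gene with many retroposed pseudogene copies. In mammals the mRNAs of these proteins typically begin with a C followed by a run of pyrimidines, the 5′ terminal oligopyrimidine or TOP motif, through which mTOR signalling controls their translation. Many of these genes also carry small nucleolar RNAs (snoRNAs), guides for the modification of ribosomal RNA, inside their introns. In skin, dividing keratinocytes of the epidermis and the hair matrix make new ribosomes for growth.

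RefSeq promoter sequences (build GRCm38.p6) were matched by symbol for 61 of the 82 genes, at 73 promoters. The windows below run from 40 bases before the RefSeq start to 20 bases from it, and capitals mark the longest pyrimidine run that reaches within 10 bases of the start. They are shown because a pyrimidine run is part of the letter pattern of the TOP motif. Below, a run at the start means one that reaches within 10 bases of it. Such a run need not begin with C or at the start base. Some of those counted end before the start, as in Rps25 (14 bases from -22) and Rpl4 (14 bases from -18). The first lines hold the 5 genes with the longest runs, all of the large subunit, followed by 3 small subunit genes whose runs begin close to the start.
Rpl7a: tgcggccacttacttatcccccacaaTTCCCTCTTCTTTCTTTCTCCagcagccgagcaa
Rpl27a: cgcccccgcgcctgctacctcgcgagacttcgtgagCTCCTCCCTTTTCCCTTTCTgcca
Rpl34: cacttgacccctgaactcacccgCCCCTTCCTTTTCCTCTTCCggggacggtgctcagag
Rpl35: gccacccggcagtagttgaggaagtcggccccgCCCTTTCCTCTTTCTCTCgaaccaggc
Rpl15: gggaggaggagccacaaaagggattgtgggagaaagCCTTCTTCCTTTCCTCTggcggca
Rps10: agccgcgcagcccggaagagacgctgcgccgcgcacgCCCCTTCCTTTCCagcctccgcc
Rps6: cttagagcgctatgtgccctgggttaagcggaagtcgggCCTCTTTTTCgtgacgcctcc
Rps27: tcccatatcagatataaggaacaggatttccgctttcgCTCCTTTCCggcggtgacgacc
Rpl7a lies at chr2:26910767-26910826 and Rpl27a at chr7:109519155-109519214, both on the plus strand. On the minus strand lie Rpl34 at chr3:130730318-130730377, Rpl35 at chr2:39005112-39005171 and Rpl15 at chr14:18270967-18271026. Rps10 at chr17:27635225-27635284, Rps6 at chr4:86857348-86857407 and Rps27 at chr3:90213629-90213688 are also on the minus strand. The run was 21 bases long in Rpl7a, 17 in Rpl15, 13 in Rps10 and 9 in Rps27. The following 3 windows, of a late-joining large subunit protein, a protein of the subunit interface and the striated muscle paralog of Rpl3, show genes with short runs there.
Rpl10: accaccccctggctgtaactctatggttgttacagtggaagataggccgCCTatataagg
Rpl24: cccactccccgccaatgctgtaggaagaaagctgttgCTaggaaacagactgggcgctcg
Rpl3l: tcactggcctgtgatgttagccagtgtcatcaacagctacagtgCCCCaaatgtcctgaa
Rpl10 is at chrX:74270776-74270835, Rpl24 at chr16:55966235-55966294 and this promoter of Rpl3l at chr17:24732645-24732704, all on the plus strand.

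A pyrimidine run of 8 or more bases near the RefSeq start was found at 30 of 73 promoters of the ribosomal protein genes (41.1%), against 12% of 75 mitochondrial ribosomal protein promoters, 14.0% of promoters of all genes in the catalogue and 13.7% of all 32841 promoters. These 30 promoters belonged to 29 genes, 18 of the large and 11 of the small subunit. Within 50 bases of the start on either side, a run of 8 or more was found at 78.1% of member promoters, with 35.7% of all promoters. The letters CTTTCC on the sense strand, themselves a pyrimidine run, were at 22 member promoters (30.1%; 4.69% of all promoters). They were at 40.9% of large subunit promoters and 13.8% of small subunit promoters. A match is a description of the letters and not evidence of use.

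Other motifs were searched on both strands within the same 50 bases on either side. CCGGAA, the core of ETS factor sites, was at 30.1% of member promoters (8.01% of all promoters). It was at 46.7% of mitochondrial ribosomal protein promoters and 13.7% of promoters of genes in the catalogue. The palindrome TCGCGA was at 9 member promoters (12.3%; 1.03% of all promoters), 5 of them in genes of the small subunit. AAGATGG, the core of the YY1 site, which holds the letters of a start codon, was at 10.96% of member promoters (2.64% of all promoters). It was at 12% of mitochondrial ribosomal protein promoters. The 8 member promoters belonged to 6 genes and included overlapping windows of Rpl35a. GGGCGG, the core of SP1 sites, was at 34.2% of member promoters (21.7% of all promoters) and 38.5% of promoters of genes in the catalogue. TATAAA, searched on the sense strand alone, was at 5 member promoters (6.85%; 3.4% of all promoters). The median G and C content of the same window was 60% in members, 64% in mitochondrial ribosomal protein genes, 65% in genes of the catalogue and 55% in all promoters.

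**Figure D1:**
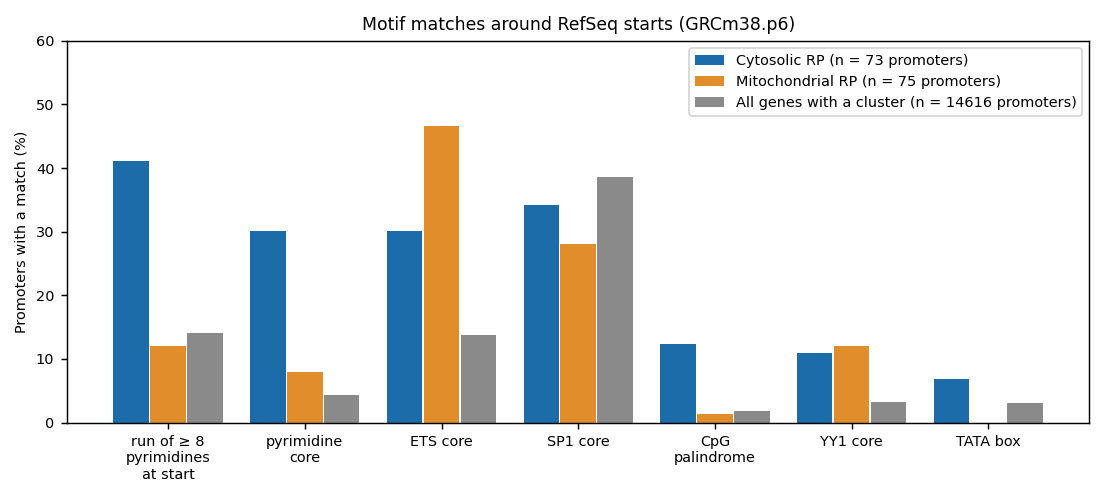
Percent of promoters (vertical axis) with a match, for cytosolic ribosomal protein genes (blue), mitochondrial ribosomal protein genes (orange) and all genes with a cluster (grey). The pyrimidine run had to reach within 10 bases of the start, and the other motifs were searched within 50 bases. The blue bar is at 41.1% for the run and at 30.1% for both the pyrimidine core (CTTTCC) and the ETS core (CCGGAA). The grey bar is the tallest for the SP1 core (GGGCGG).

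Genes not matched to a promoter included Rpl3, Rpl7, Rpl8, Rpl17, Rpl21, Rpl23a, Rpl29, Rpl30, Rpl32, Rpl36, Rplp1, Rps14, Rps20, Rps27a, Rps29 and Rps4y2. Genes with a run of 8 or more at the start had a median widest cluster of 121 bp (range 48 to 194 bp, 29 genes), and the others one of 134 bp (range 61 to 217 bp, 32 genes). The ranges overlapped.

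The set of ribosomal protein genes was almost complete. Of a list of 79 canonical ribosomal protein genes, 78 had a cluster, including 46 of 47 large subunit genes and 32 of 32 small subunit genes. Rpl41, a gene of a very short large subunit peptide, had none under that symbol among the clusters analysed here. Rps3a1 was listed under its older symbol, Rps3a. Fau, which encodes a ribosomal protein fused to a ubiquitin-like domain, was listed but lies outside the naming rule. Of the 82 genes, 76 were canonical. The remaining 6 were the paralogs Rpl3l, Rpl7l1, Rpl22l1, Rpl39l and Rps27l and the symbol Rps4y2, an older symbol of Rps4l, which RefSeq annotates as a transcribed pseudogene.

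All 82 genes had their clusters on 1 strand of 1 chromosome, 47 of them on the plus and 35 on the minus strand. That chromosome was the one in RefSeq for 82 of 82. They lay on 19 chromosomes, with 14 on chromosome 7 (17.1%; 7.56% of all genes in the catalogue) and 8 on chromosome 17 (9.76%; 4.74% of all genes). Rps2 and Rpl3l, on the plus strand of chromosome 17, were 6524 bp apart with 1 named gene between them.

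The genes carried 448 clusters, of which 226 spanned under 10 bp (50.4%), 139 spanned 10 to 99 bp (31.0%) and 83 spanned 100 bp or more (18.5%). This split was close to that of all clusters given to genes, with 48.3% under 10 bp, 30.6% at 10 to 99 bp and 21.0% at 100 bp or more. The median was 4.5 clusters per gene, with quartiles of 3 and 7 and a range of 1 to 18. The mitochondrial ribosomal protein genes, 78 genes whose products make the separate ribosome of mitochondria, had a median of 2 and at most 6. All genes of the catalogue also had a median of 2. Among the ribosomal protein genes, 75 of 82 (91.5%) had 2 or more clusters (54.3% of all genes), and 11 (13.4%) had 10 or more (5.06% of all genes). No mitochondrial ribosomal protein gene had 10 or more, but 33.3% of a list of 18 other genes of translation (mostly elongation and initiation factors) did. Large subunit genes had a median of 5 and small subunit genes one of 4.

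**Figure D2:**
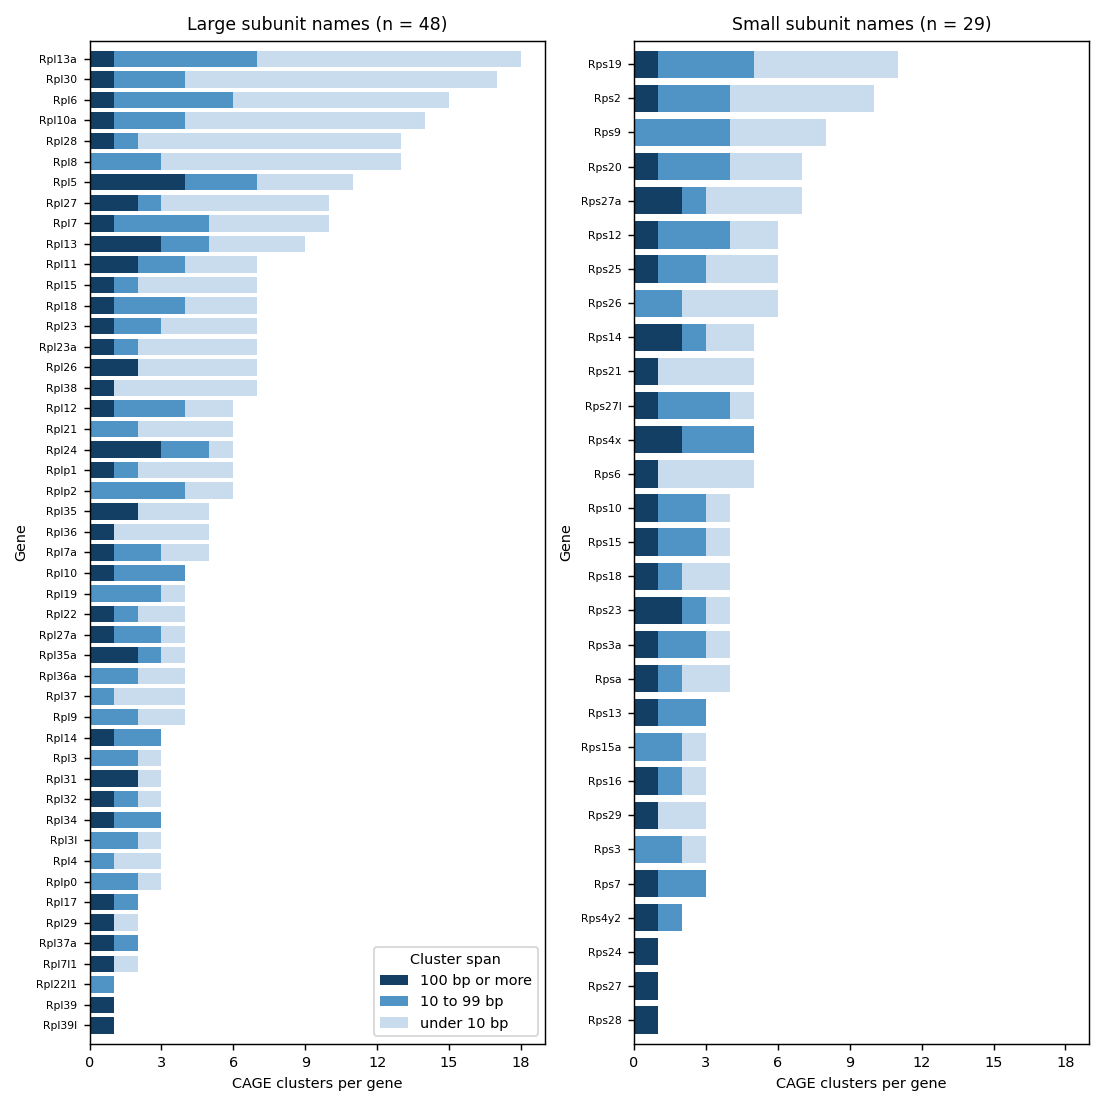
Number of CAGE clusters (horizontal axis) for 48 large subunit names (left) and 29 small subunit names (right), split by the span of the cluster. Rpl13a has the longest bar, at 18, and Rps19 the longest of the small subunit, at 11; 6 of the genes drawn have a single cluster.

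Rpl13a, a large subunit protein gene that carries several snoRNAs, had the most clusters with 18, followed by Rpl30 with 17, Rpl6 with 15 and Rpl10a with 14. The first 4 of the Rpl13a clusters had also been given to Flt3l, whereas Rpl30 shared none, so the first rank depends on that assignment. Rpl28 had 13, as did Rpl8, the protein of which lies close to the catalytic centre. Rpl5, which with Rpl11 binds the p53 regulator Mdm2, had 11, as did Rps19, the human counterpart of which is mutated in Diamond-Blackfan anaemia. Rpl27, Rpl7 and Rps2 had 10 each. Of these clusters, 7 of the 18 in Rpl13a, 4 of the 17 in Rpl30 and 2 of the 13 in Rpl28 spanned 10 bp or more. In Rpl5, 7 of 11 spanned 10 bp or more and 4 spanned 100 bp or more.

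At the other end, 7 genes had a single cluster. Rps28 had one of 213 bp, Rpl39l, a paralog known from testis, one of 199 bp, and Rps24 one of 152 bp. Rps27, a zinc finger protein of the small subunit, had one of 116 bp and Rpl39, of the exit tunnel, one of 102 bp. Rpl22l1, the paralog of Rpl22, had one of 68 bp.

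**Figure D3:**
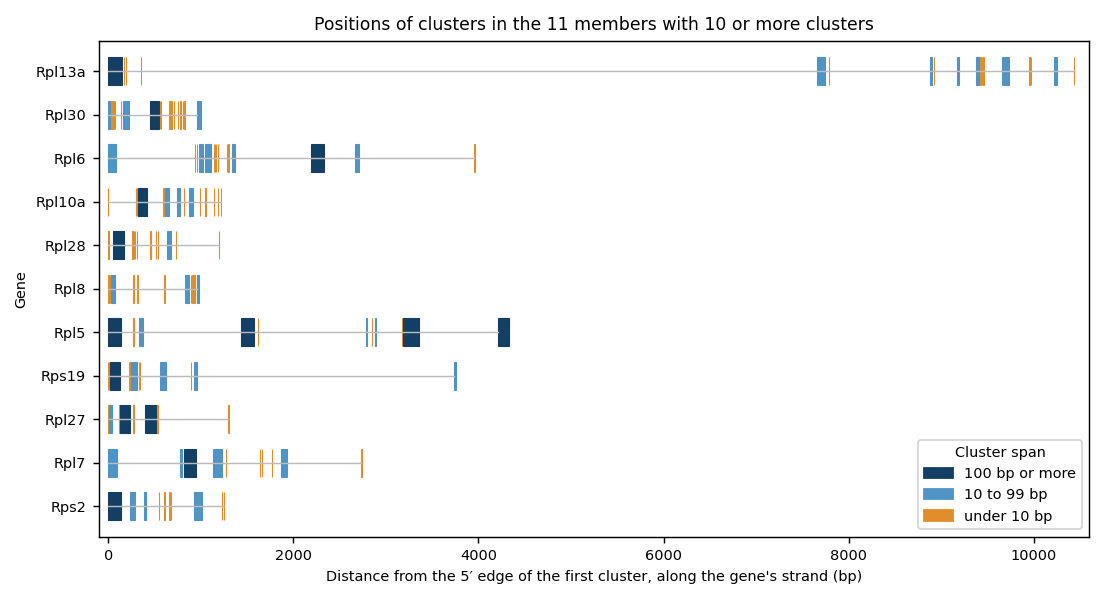
Positions of all clusters in the 11 genes with 10 or more, as distance in bp from the 5′ edge of the first cluster along the gene's strand (horizontal axis), one gene per line; colour gives the span. Clusters of Rpl30, Rpl10a and Rpl8 follow each other within 1007, 1219 and 975 bp, while the first 4 clusters of Rpl13a stand 7302 bp before the next.

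In the 75 genes with 2 or more, the first and last edges were a median of 1002 bp apart, and the clusters covered a median of 18.95% of that stretch. In Rpl30 the 17 clusters fell within 1007 bp, and in Rpl8 the 13 fell within 975 bp. Of the 366 clusters other than the widest of each gene, 246 (67.2%) lay downstream of it and 120 upstream. This share was 67.0% for mitochondrial ribosomal protein genes and 60.3% for all genes, so the members were near the mitochondrial set.

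Every ribosomal protein gene had at least 1 cluster of 10 bp or more, as did every mitochondrial ribosomal protein gene and 91.2% of all genes. The median span of the widest cluster was 129.5 bp (quartiles 101 and 153 bp), against medians of 115.5 bp for mitochondrial ribosomal protein genes and 110 bp for all genes. A cluster of 100 bp or more was found in 64 of 82 genes (78.0%; 56% of all genes). The share was 60.3% in mitochondrial ribosomal protein genes, 72.2% in the 18 other genes of translation and 70% in 20 ribosome biogenesis genes. In the 16 cell type markers it was 81.25%, so a wide cluster was not particular to ribosomal protein genes. Such a cluster was found in 36 of 49 large subunit genes and 28 of 33 small subunit genes. The lowest widest span was 44 bp in members, against 23 bp in mitochondrial ribosomal protein genes and 2 bp in all genes.

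The widest clusters belonged to Rpl22 at 217 bp, Rps28 at 213 bp and Rpl29 at 202 bp. The Rpl22 cluster ran from 151699791 to 151700008 on the plus strand of chromosome 4 (mm9, as deposited), and that of Rps28 from 33961267 to 33961480 on the minus strand of chromosome 17. Rpl39l and Rplp1, one of the stalk proteins that recruit elongation factors, had 199 bp each. Rpl38, needed in mice for the translation of a subset of Hox mRNAs, had 194 bp and Rpl31 had 187 bp. Rpl18 had 183 bp, Rpl36 178 bp and Rpl34 177 bp. The narrowest were Rpl8 at 44 bp, Rplp2, the other small stalk protein, at 48 bp, and Rpl3l at 61 bp. Rpl7l1 had a widest cluster of exactly 100 bp, and Rpl36a, at 96 bp, was just below that limit. Rplp0, the stalk base and a common reference gene in PCR assays, had 89 bp.

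A gene may have several wide clusters. In 15 genes (18.3%; 4.92% of all genes), 2 or more clusters spanned 100 bp or more, against 2.56% of mitochondrial ribosomal protein genes. Such genes made up 22.2% of the 18 other genes of translation and 18.75% of the 16 cell type markers, so the share was not higher in ribosomal protein genes than in these. Rpl5 had 4 of them, at 0, 1430, 3179 and 4216 bp from its first edge, with spans of 142, 144, 174 and 110 bp. Rpl13 and Rpl24 had 3 each. The other 12, with 2 each, included Rpl11, Rpl26, Rpl27, Rpl31, Rpl35, Rpl35a, Rps4x, Rps14, Rps23 and Rps27a. In Rps4x, the X-linked small subunit gene, the first cluster spanned 150 bp and the last, 2847 bp downstream, spanned 165 bp.

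In 26 of 82 genes (31.7%; 18.9% of all genes; 15.4% of mitochondrial ribosomal protein genes) the widest cluster was not the first of those spanning at least 10 bp. In these, the widest cluster began a median of 830.5 bp after the first, from 207 bp in Rpl21 to 3179 bp in Rpl5. Rps18 had its widest cluster 3102 bp after the first. Rps3, of the messenger RNA entry site, had first and widest clusters of 59 and 84 bp, 978 bp apart. In Rpl3, with 74 and 77 bp, the spans of both were nearly equal.

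How the share of genes with far gaps compared with that of all genes depended on the distance. Neighbouring clusters at least 1000 bp apart were found in 14 of 82 genes (17.1%; 15.5% of all genes; 15.4% of mitochondrial ribosomal protein genes), and clusters at least 500 bp apart in 38 of 82, against 3576 of all 16094 genes. The largest gaps were 7302 bp in Rpl13a, 6613 bp in Rpl24 and 3053 bp in Rplp2. The others were between 1024 and 2785 bp, in genes that included Rpl5, Rpl6, Rpl7a, Rpl10, Rpl18, Rpl22, Rpl23, Rps14, Rps18 and Rps19.

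The far clusters of Rpl13a were shared with another gene. Its first 4 clusters, among them the widest at 150 bp (52391666 to 52391816, minus strand of chromosome 7, mm9), had also been given to Flt3l, a cytokine gene. The next cluster, of 91 bp at 52384070 to 52384161, had been given to Rpl13a alone, and so had one of 2 bp after it. The remaining 12 had also been given to Snord32a, Snord33, Snord34 or Snord35a, of which Rpl13a is the known host. Which gene the 150 bp cluster belongs to was not tested. In Rps18, likewise, the widest cluster of 168 bp had also been given to B3galt4, an enzyme of glycolipid synthesis, and in Rpl18 the last cluster, of 2 bp, to Fam83e.

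Sharing of clusters with another symbol was mostly sharing with snoRNAs. A cluster that also carried another symbol was found in 24 of 82 genes (29.3%; 4.57% of all genes), against 2.56% of mitochondrial ribosomal protein genes and 27.8% of the 18 other genes of translation. Together 120 of 448 clusters (26.8%) were shared, against 2.03% of all clusters given to genes. The other symbol was a snoRNA in 21 of the 24 genes. These 31 snoRNA symbols were 23.0% of the 135 snoRNA symbols in the catalogue. As the authors' rule for giving a cluster to a gene is not stated, a shared cluster does not show that the snoRNA itself was capped or read.

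All clusters were shared in 14 genes. Rps12 shared its 6 with SNORD101, Snord100 and Snora33, and Rpl7a its 5 with SNORD24 and SNORD36. Rpl13, with 9, carried Snord68, Rps2, with 10, carried Snora64, and Rps20, with 7, carried snoU54. In Rpl17, Rpl23a, Rpl27a, Rpl32, Rps3, Rps13 and Rps16 too every cluster had a snoRNA symbol. Rps21 shared all 5 with the clone-named AL663027.1 alone.

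In the others the shared clusters formed part of the gene. In Rpl5, Rpl10 and Rpl12 the first clusters were the gene's own and the last ones shared: 3 of 11 with Snord21 in Rpl5, 1 of these also with SNORA66, 2 of 4 with Snora70 in Rpl10, and 2 of 6 with Snora65 in Rpl12. In Rpl6 and Rpl23 the order was the opposite, with the first 12 of 15 shared with SNORA42 and the first 5 of 7 with Snora21. Rpsa, the ribosomal protein also known as the laminin receptor precursor, shared its clusters of 85 and 151 bp with SNORA62, the wider one also with SNORA73. Rplp2 shared 2 of 6 with Snora52. The 21 snoRNA-sharing genes had a median of 6 clusters and the other 61 a median of 4.

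Upstream of many of these genes lay a cluster on the opposite strand. Within 400 bp before the first cluster of at least 10 bp, 33 of 82 genes (40.2%; 21.1% of all genes) had one, pointing away from the gene, against 29.5% of mitochondrial ribosomal protein genes and 44.4% of the 18 other genes of translation. It carried no gene symbol in 21 of them (25.6%; 8.35% of all genes; 2.56% of mitochondrial ribosomal protein genes; 11.1% of the 18 other genes of translation). It carried a gene symbol in 12 (14.6%; 12.8% of all genes; 26.9% of mitochondrial ribosomal protein genes; 33.3% of the 18 other genes of translation). In the mitochondrial set 21 genes had a named partner and 2 an unnamed one.

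Named partners were single genes of varied function in 10 of the 12 cases. Rps27 faced Rab13, a small GTPase, at 14 bp, Rps25 faced Trappc4, of a vesicle tethering complex, at 1 bp, and Rpl12 faced Lrsam1, a ubiquitin ligase, at 11 bp. Rps28 faced Ndufa7, a subunit of respiratory complex I, at 29 bp, and Rpl9 faced Lias, which makes lipoic acid, at 49 bp. Rpl15 faced Nkiras1, an inhibitor of NF-κB signalling, at 61 bp, and Rps18 faced Vps52 at 92 bp. Wider gaps separated Rpl18 from Sphk2 (251 bp), Rpl7 from Rdh10 (296 bp) and Rpl4 from Zwilch (399 bp). Gaps were measured from the first cluster of at least 10 bp. In Rps25, Rpl7, Rpl18 and Rps18 the widest cluster began 538, 821, 2513 and 3102 bp after it. Rps2 faced a cluster given to Snhg9 and Snora78, a snoRNA host gene and its snoRNA, at 80 bp. Rps29 faced one given to the clone-named AC099934.1 at 79 bp.

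Genes with an unnamed partner included 14 of the large and 7 of the small subunit. The gaps ran from 9 bp in Rpl23 to 208 bp in Rpl3. Rps6, the substrate of the S6 kinases downstream of mTOR, had one at 32 bp, Rpl35 at 22 bp and Rplp1 at 50 bp. Among paralogs, Rpl22l1 had one, at 121 bp. Others were Rpl13, Rpl14, Rpl19, Rpl27, Rpl27a, Rpl28, Rpl34, Rpl37, Rps12, Rps13, Rps15a, Rps16 and Rpsa.

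**Figure D4:**
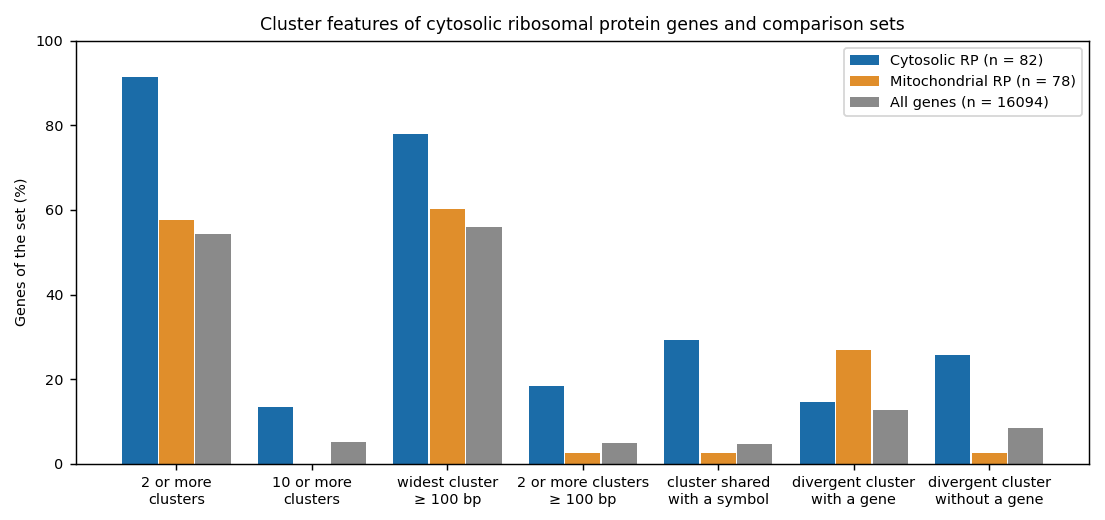
Percent of genes (vertical axis) with each cluster feature, for 82 cytosolic ribosomal protein genes (blue), 78 mitochondrial ribosomal protein genes (orange) and all 16094 genes (grey). The blue bars are the tallest except for a divergent cluster with a gene, where the orange bar is at 26.9% and the blue one at 14.6%.

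The paralogs that were listed had between 1 and 6 clusters each. Rpl3l had 3, of 39, 61 and 2 bp on the plus strand of chromosome 17, and its ubiquitous counterpart Rpl3 also had 3. Rps27l, a p53 target, had 5 clusters with a widest of 162 bp, whereas Rps27 had 1. Rpl7l1 had 2 clusters against 10 for Rpl7, and Rpl22l1 had 1 against 4 for Rpl22. Rpl39l and Rpl39 had 1 each, of 199 and 102 bp. The symbol Rps4y2 had 2, of 137 and 11 bp on chromosome 6, against 5 for Rps4x. Rpl36al, which the naming rule leaves out, had 6. Rps27rt was listed under its older symbol Gm9846 with 1 cluster of 4 bp, and Rpl10l had none among the clusters analysed here.

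Copies of these genes limit the counts. The catalogue held 58 pseudogene symbols ending in -ps and a number, with 74 clusters, named for 40 of the 82 genes. Their widest clusters had a median of 9.5 bp, and 29 of the 58 were under 10 bp. The widest were Rps26-ps1 at 191 bp, Rplp2-ps1 at 185 bp and Rpl10a-ps1 at 182 bp, each wider than the widest cluster of its parent gene, which was 66 bp in Rps26, 48 bp in Rplp2 and 101 bp in Rpl10a. How reads matching both a gene and its copies were treated is not given in the sources used here, so the clusters of these genes are uncertain to that extent.

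Other genes of the translation machinery were also listed. Of the 18 other genes of translation, Fau among them, all 18 were listed, with a median of 8.5 clusters and a widest cluster of median 127.5 bp. Eef1a1, the elongation factor that delivers tRNA, had 29, Pabpc1, the poly(A) binding protein, had 18, and Tpt1 had 14, whereas Eef2 had 1 of 52 bp. Gnb2l1, the older symbol of the ribosome scaffold Rack1, had 10. All 20 genes of a ribosome biogenesis list were listed too, with a median of 2 clusters, equal to that of all genes. Ubtf, a factor of RNA polymerase I, had 17, Gar1 had 12 and Ncl, nucleolin, had 11, and 9 of the 20 had 1.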

How the data were processed

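CAGE libraries of 8 mouse facial skin samples were made, per the labels. The deposited table gives each tag cluster's position, the gene symbol the authors gave it and 8 columns of per-library values. The column names match no label, so these 8 columns were not used, the planned test of lesional against non-lesional skin was not run, and library depth was not analysed here. BWA, HISAT2 and the build mm9 are named in the submitters' processing notes. No source used here says how clusters were made or assigned to genes.

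Each distinct position was 1 cluster, counted once per gene. Span is end minus start, and coordinates are printed as deposited, with no statement of whether starts count from 0 or 1. Measures of order used the 16080 genes with all clusters on 1 strand of 1 chromosome. Where clusters tied as the widest, as in Rpl8 and Rpl11, the one listed first was used. Older symbols and gene types came from the RefSeq gene table of GRCm38.p6, and promoter sequences from RefSeq on the same build. No coordinates were moved between builds. Values were computed with Python 3.11.15 and pandas 2.3.3, and the counting was tested on simulated data. Named genes were the 10 with the most clusters (ties included), the 10 with the widest cluster, those with 1 cluster, with clusters at least 1000 bp apart or shared, the paralogs and the listed partner and biogenesis genes. Genes named for a narrow widest cluster, several wide clusters, a widest cluster that is not the first, an opposite-strand cluster upstream or a printed sequence were chosen after their values were seen. Some genes are counted in the totals but not reported by name or drawn here. The members and lists were chosen with earlier results of these data known. Genes are not replicates, so shares and medians are set beside those of all genes, with no test.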

Additional observations from a re-analysis of the deposited data

How the results depend on the processing

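The catalogue has no replicates of its own, so alternatives were compared with the reported value by a factor of 1.5. No paired analysis was possible because no value column names its sample. For that reason no alternative on levels (normalization, filters, pseudocounts, libraries left out) was run either. Of 23 alternatives, 13 were counted within that factor and 10 outside it. Values at the limit of the factor fell on either side. AAGATGG in the whole window (12 promoters against 8) was counted outside, and the median with joined neighbours (3 against 4.5) within. With clusters of at least 10 bp, the median number of clusters per gene was 2.5 in ribosomal protein genes and 1 in all genes; with neighbours within 100 bp joined it was 3 and 1. The share of member promoters with a pyrimidine run moved to 67.1% for 5 or more bases at the start (44.9% of all promoters), 78.1% for 8 or more within 50 bases, and 89.0% for 8 or more in the whole window of 300 bases (72.9% of all promoters). In the whole window TATAAA was at 8.22% of member promoters, near the 8.32% of all promoters. With a distance of 500 bp, 38 of 82 genes had far gaps (3576 of all 16094 genes), against 14 at 1000 bp (2493 of all genes). With genes of 1 cluster counted, the share was near that of all genes at 1000 bp and not at 500 bp. Among genes with 2 or more clusters (75 and 8742), it was lower than that of all genes at 1000 bp and higher at 500 bp. With a first cluster of any span, the widest was not the first in 44 genes (31.7% of all genes), against 26 (18.9% of all genes). The shares of all genes include genes with 1 cluster, which cannot show it. Among genes with 2 or more clusters, 26 of 75 members and 3044 of all 8728 showed it in the main setting, nearly equal shares. The whole window also moved 4 of the 6 letter motifs, counting AAGATGG, which was at the limit. The share with an unnamed opposite-strand cluster upstream stayed between 19.5% and 25.6% under the 4 alternatives, which were chosen after seeing the data, as were those for far gaps, shared clusters and the order of clusters. The cause of these moves was not tested.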
